A study of Nannochloropsis oceanica with 18 samples.

Results

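The broad regions are those enriched intervals of the Nannochloropsis oceanica genome that spanned at least 12 kb in the deposited region table. Of the 3803 regions in that table, 479 (12.6%) met this width, and no other criterion was applied. They were 12004 to 71931 bp wide with a median of 18252 bp, and 201 spanned at least 20 kb and 28 at least 40 kb. Few in number, they held 10.4 of the 21.9 Mb covered by all regions (47.4%).

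The histone marks were profiled in strain IMET1 by chromatin immunoprecipitation sequencing (ChIP-seq), which counts the DNA fragments pulled down with an antibody. They were acetylation of histone H3 at lysine 27 (H3K27ac), lysine crotonylation (Kcr) and dimethylation of histone H3 at lysine 36 (H3K36me2). C0 cells came from nitrogen-replete f/2 medium in logarithmic growth, and N1 and N2 cells had spent 1 or 2 days in f/2 medium without nitrogen. Each of the 9 combinations of mark and condition is labelled with 2 libraries, 18 in all. Before sampling, N1 and N2 cells were also washed, moved to new vessels and grown under weaker light than the C0 culture. The effects of the medium, the handling and the light cannot be told apart in any comparison with C0. The labels give the same antibody catalogue number for H3K27ac and H3K36me2, and the study's methods name others, so the antibodies behind each mark are uncertain.

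Acetylation and crotonylation of histone lysines neutralise the positive charge of the side chain and loosen its contact with DNA, and both are generally found at transcribed chromatin. H3K27ac marks active promoters and enhancers in animals and plants, and in mammals long acetylated stretches tend to lie at strongly transcribed genes. H3K36 methylation is laid down along transcribed gene bodies in yeast and animals. Nannochloropsis is an oleaginous microalga known for storing triacylglycerol when nitrogen runs out. No gene is assigned to the regions here, and each is identified by its deposited coordinates, for which no genome build is stated. The study's methods name the IMET1 genome of the NanDeSyn database for its other assays, not for ChIP-seq.

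Enrichment was the ratio of the coverage of a library over a region (pileup) to the background expected there (lambda), with 0.5 added to both, and changes were differences of its log2 value. Identical values were found in both libraries of Kcr from N2, and likewise in those of H3K36me2 from C0, and each such pair was counted as 1 library. In the other 7 pairs, log2 enrichment over the 479 broad regions correlated between libraries at r = 0.794 to 0.978, and the SD of the difference was 0.0879 to 0.137. The study describes 2 biological replicates, but the labels do not show separate cultures behind the paired libraries. The p-values rest on the spread between these libraries, pooled largely over regions, and this spread may be technical. The lambda values of any pair of libraries of the same condition correlated at 0.989 or more, also between marks, against 0.765 to 0.841 between conditions. The same background, or closely similar ones, therefore appears to underlie all 3 marks of a condition, and the shared error is not in the standard errors. The study's supplement lists 2 libraries per condition with no mark in their names, which may be the inputs. Whether these were pooled is not stated. The pileup moved in steps equal to 1 fragment per 1.86 to 7.29 M, but whether it was a maximum, a median or another value over a region is not stated in the sources used here.

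Broad regions lay in the interior of the chromosomes. All 30 chromosomes carried them, with chr9 richest (21.8% of its regions and 62.2% of its covered bases) and chr26 poorest (2.83% and 13.6%). Since chromosome lengths were not at hand, position was taken as the distance to the outermost region on the nearer side, a measure chosen after the values were seen. Within 100 kb of an outermost region, 18 of 966 regions (1.86%) were broad, against 461 of 2837 (16.25%) farther in. On 17 chromosomes no broad region lay within 100 kb of either end region. From 50 to 100 kb the share was lowest, with 4 of 477 regions, and beyond 400 kb it was highest, with 204 of 746 (27.4%). The last region of chr22 to chr30 ended at 501541 to 704750 bp, so these chromosomes held no region beyond 400 kb. On them 2.83% to 10% of regions were broad, against 13.4% to 21.8% on chr1 to chr9. Distance and chromosome size were not separated. Only 4 broad regions were themselves the first or last region of a chromosome.

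**Figure D1:**
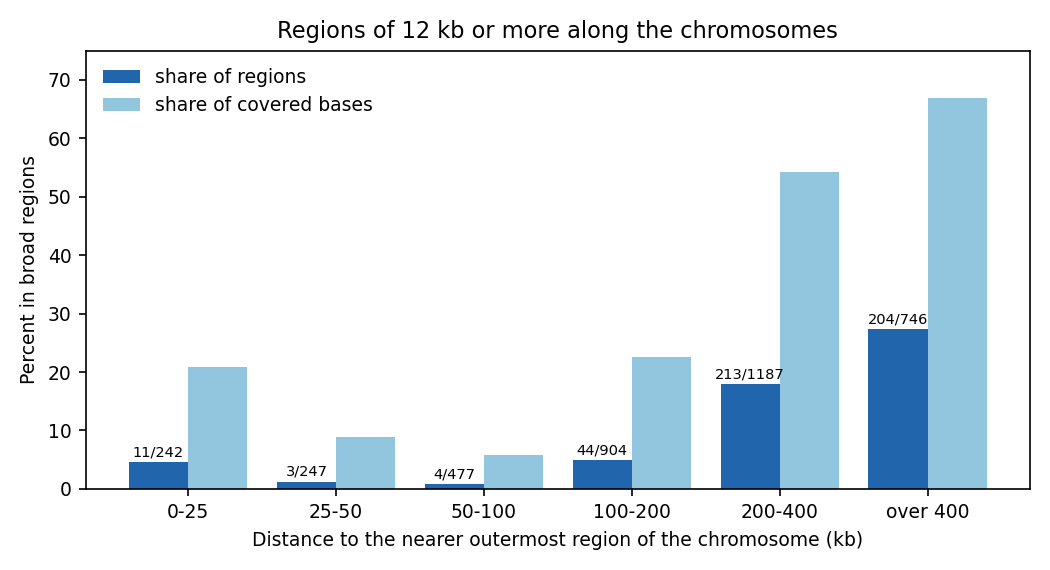
Percent of regions (dark bars, with counts) and of covered bases (light bars) that belonged to broad regions, by distance in kb to the nearer outermost region of the chromosome. The share of regions was 4.55% in the first 25 kb, 0.839% at 50 to 100 kb and 27.4% beyond 400 kb.

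Part of the broad regions lay next to each other. A broad region was adjacent to another one in 194 of 479 cases (40.5%), whereas 659 of the 3324 narrower regions (19.8%) had a broad neighbour. The narrower regions include those near the ends, where few regions were broad. Beyond 200 kb from an outermost region, 417 of 1933 regions (21.6%) were broad. Adjacency was not compared at equal distance, so it cannot be separated from the interior position. The gap to the neighbouring region had a median of 854 bp for broad and 1634.5 bp for narrower regions. At the threshold itself, the members just inside it were 12004, 12011 and 12038 bp wide and the regions just outside were 11993, 11985 and 11968 bp wide. H3K27ac ratios in C0 were 5.36, 5.35 and 3.42 in the former and 2.62, 3.94 and 3.65 in the latter, so that the ranges overlapped.

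Nearly every broad region carried both acyl marks in replete cells. Strong H3K36me2 was nearly absent, as it was in regions of any width. The median H3K27ac ratio was 3.74 in C0 (5th to 95th percentile 2.52 to 6.38), 3.20 in N1 and 2.57 in N2. The median Kcr ratio was 3.09 in C0 (2.34 to 3.87), 2.20 in N1 and 2.09 in N2. H3K36me2 stayed close to background, with medians of 1.28, 1.26 and 1.25. A ratio of at least 2 was reached by 475 of 479 regions for H3K27ac and 476 for Kcr in C0, and by 430 and 314 in N2. Over all regions the shares were 61.2% and 65.6% in C0, and 44.9% and 34.5% in N2. Among the regions of 6 to 12 kb they were 91.1% and 92.4% in C0, and 73.4% and 53.6% in N2. For H3K36me2 only 1 of all 3803 regions reached it, a broad one, and only in N1. Over all 3803 regions the C0 medians were 2.55 for H3K27ac, 2.54 for Kcr and 1.18 for H3K36me2.

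Compared with the next narrower regions, the broad ones were somewhat higher and more alike. The 642 regions of 6 to 12 kb had median C0 ratios of 3.25 for H3K27ac, 2.90 for Kcr and 1.24 for H3K36me2. The SD of log2 enrichment in C0 was 0.42 among broad regions and 0.72 in the 6 to 12 kb band for H3K27ac, and 0.23 against 0.53 for Kcr. Region limits were merged from peaks called in these libraries, so that a level of enrichment is not independent of width, and no test was made of it. Among the broad regions themselves, width hardly tracked the level. The correlation of log2 width with log2 enrichment was 0.0186 to 0.161 over the 479 regions for the 9 groups, against 0.376 to 0.582 over all regions. From the 133 regions of 12 to 15 kb to the 77 of 30 kb or more, the median H3K27ac ratio in C0 went from 3.51 to 4.08 and that of Kcr from 3.02 to 3.10.

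**Figure D2:**
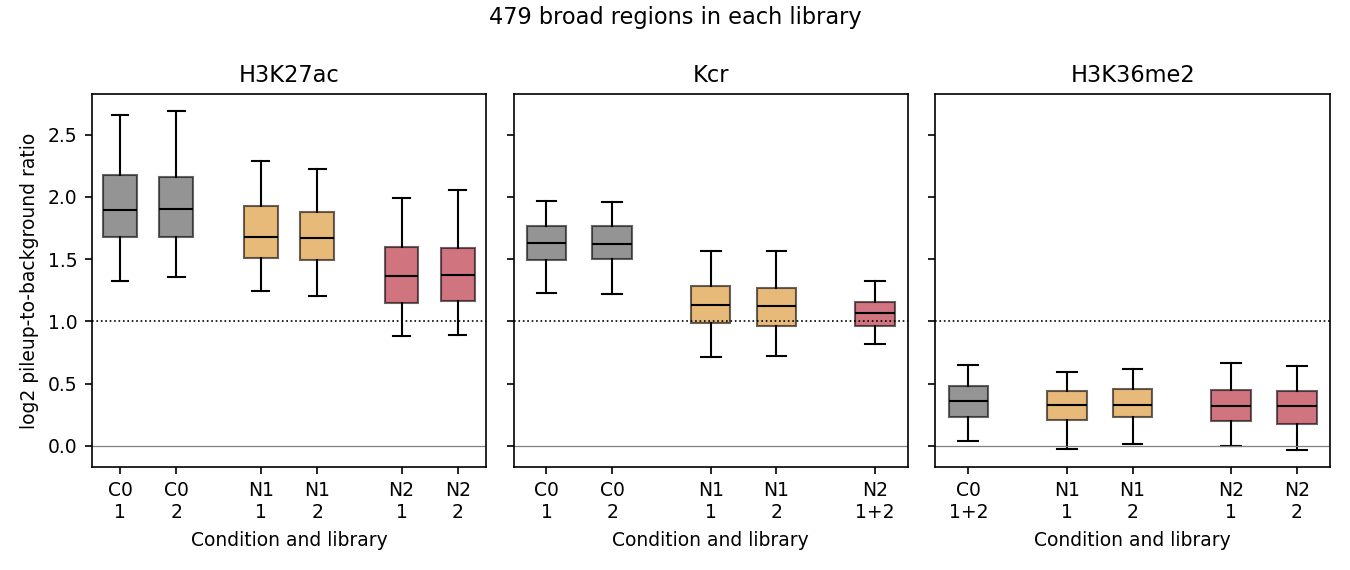
Log2 ratio of pileup to background of the 479 broad regions in each library. Boxes give quartiles and medians, whiskers the 5th and 95th percentiles, the dotted line a ratio of 2, and 1+2 a pair with identical values. H3K27ac medians were 3.71 and 3.74 in the C0 libraries and 2.58 and 2.59 in N2, and H3K36me2 was near background throughout.

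A ratio of at least 2 in all 3 conditions was seen in 428 broad regions for H3K27ac and in 247 for Kcr, and 47 and 163 regions that had it in C0 no longer had it in N2. Those with it throughout were 89.4% and 51.6% of the broad regions, 71.5% and 35.8% of the regions of 6 to 12 kb, and 42.2% and 22.2% of all regions, so that the order of the marks was the same in each. The acyl marks followed each other less closely here than in the table as a whole. Across the 479 regions, the correlation of log2 H3K27ac with log2 Kcr in C0, N1 and N2 was 0.554, 0.769 and 0.714, against 0.952, 0.954 and 0.921 over all regions, whose levels spread more widely. For Kcr with H3K36me2 it was 0.421, 0.276 and 0.271. These values are descriptive, since the marks of a condition share the same or a closely similar background.

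A 16.8-kb region at chr4:879032-895820 was the exception to the acyl marking. Its H3K27ac ratios were 0.398 and 0.429 in C0, 0.527 and 0.414 in N1, and 0.846 and 0.782 in N2. Kcr was 0.827 and 0.698 in C0, 0.875 and 0.868 in N1, and 0.800 in N2. H3K36me2 was 1.54 in C0, 1.46 and 1.53 in N1, and 1.08 and 1.20 in N2. It was the sole broad region with less H3K27ac than background in any condition, and H3K36me2 was the one mark above background. By N2 its H3K27ac had risen by 0.98 ± 0.20 (log2 difference ± SE, adjusted p = 0.000245) and its H3K36me2 had fallen by 0.44 ± 0.11 (adjusted p = 0.00204), with the libraries of C0 and N2 apart for both marks. Its Kcr difference was 0.07 ± 0.22 (adjusted p = 0.773). A rise of H3K27ac by N2 was also called in 46.4% of the regions under 1 kb, whose median ratio was 0.576 in C0 and 0.747 in N2.

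H3K27ac was called lower in 49.9% of the broad regions by day 1 and in most by day 2. The N1 difference was negative in 361 broad regions and positive in 118, and 191 were not called in either direction. In N1, 49 broad regions rose and 239 fell against C0 at an adjusted p under 0.05 (limma, Benjamini-Hochberg over 3803 regions), where 14.3% of all regions rose and 37.2% fell. In N2, 25 rose and 404 fell, where 23.6% of all regions rose and 54.2% fell. Median log2 differences of -0.21 (N1) and -0.55 (N2) in the broad regions compare with -0.13 and -0.31 over all regions. Between the days, 17 broad regions rose and 331 fell from N1 to N2, where 19.6% of all regions rose and 41.7% fell, with a median of -0.31 against -0.14. The sum, 348 broad regions, compares with 61.3% of all regions. Relative to C0, 17 broad regions had at least halved in N1, where 3.58% of all regions had, and 47 in N2, where 6.81% had.

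These directions held for the ratio and not for every scaling. With the medians of all libraries set equal, 98 broad regions rose and 156 fell on day 1 (24.4% and 25.1% of all regions), 94 rose and 188 fell by day 2 (42.4% and 24.5%), and 66 rose and 113 fell between the days (36.3% and 15.4%). Equalising the SDs too gave 91 rises and 102 falls on day 1 (15.6% and 18.4% of all regions), 168 rises and 63 falls by day 2 (25.7% and 15.3%), and 182 rises and 33 falls between the days (23.9% and 8.73%). The pileup without background gave 196 rises and 86 falls on day 1, where 33.7% of all regions rose and 15.4% fell. The background itself was higher in broad regions. Relative to the lowest lambda of each H3K27ac library, its median over C0, N1 and N2 was 1.47, 1.55 and 1.50, against 1.25, 1.24 and 1.23 in narrower regions.

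**Figure D3:**
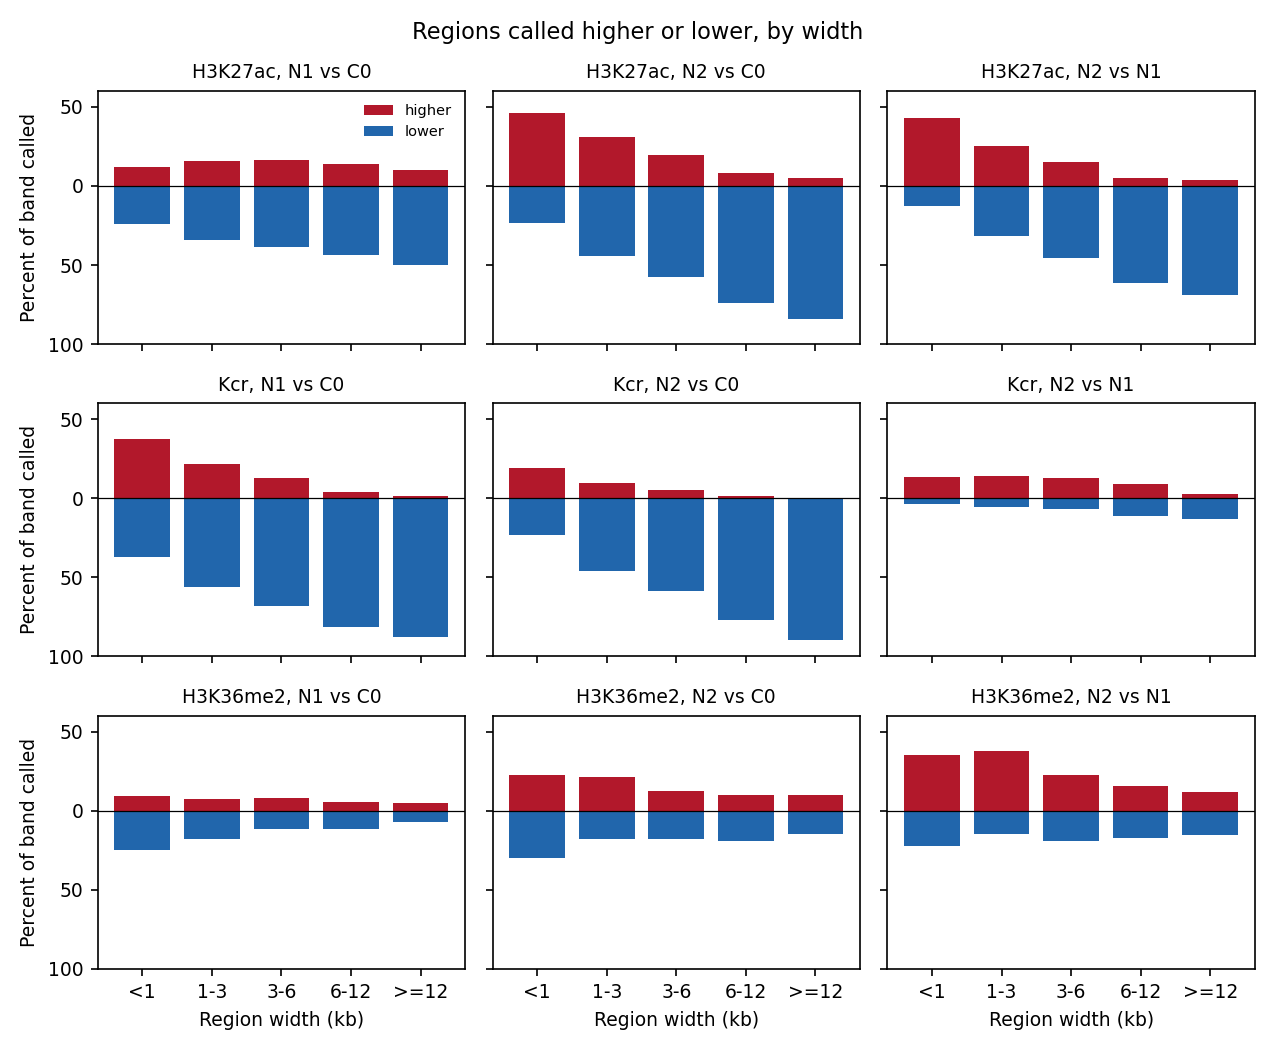
Percent of the regions of each width band that were called higher (red, upwards) or lower (blue, downwards) at an adjusted p under 0.05, for each mark and comparison, with width in kb. For H3K27ac in N2 against C0 the share called lower was 74.3% at 6 to 12 kb and 84.3% at 12 kb or more.

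The deepest losses of H3K27ac took regions from among the strongest in C0 to below the broad median. The C0 value enters both that level and the loss, so a high start follows partly from how these regions were chosen. At chr6:921281-940020, the highest of all broad regions in C0, H3K27ac ratios were 8.94 and 8.78 in C0, 2.84 and 2.69 in N1, and 2.45 in both N2 libraries. The fall was 1.68 ± 0.07 in N1 (adjusted p = 3.59e-13) and 1.85 ± 0.07 in N2 (adjusted p = 6.33e-14), and most of it was thus complete after 1 day. At chr11:782447-801163 the fall went on through day 2, with ratios of 7.17 and 7.15 in C0, 2.61 and 2.56 in N1, and 1.44 and 1.54 in N2. Its log2 difference in N2 was -2.27 ± 0.08 (adjusted p = 4.78e-14), the largest loss of any broad region. A stepwise course was also seen at chr14:825002-839620, where ratios were 8.02 and 7.62 in C0, 4.06 and 3.77 in N1, and 2.20 and 2.48 in N2.

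Other losses stopped after day 1. At chr10:860662-877777, the ratios were 7.14 and 7.03 in C0, 2.96 and 2.94 in N1, and 2.96 and 2.73 in N2. N2 differed from N1 there by -0.05 ± 0.07 (adjusted p = 0.546). At chr7:659292-671973 they were 6.47 and 7.13 in C0, 2.83 and 2.74 in N1, and 2.83 and 2.87 in N2. Conversely, chr5:853288-865493 differed from C0 by -0.06 ± 0.09 in N1 (adjusted p = 0.624), with 3.90 and 3.98 in C0, 4.00 and 3.57 in N1, and 1.75 and 2.10 in N2. Its fall from N1 to N2 was 0.98 ± 0.09 (adjusted p = 3.21e-07), the largest between the days.

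Gains of H3K27ac were fewer and included a pair of regions on chr27. At chr27:296912-316265 the ratios were 2.69 and 2.83 in C0, 5.93 and 5.96 in N1, and 5.04 and 4.67 in N2. The rise was 1.11 ± 0.07 in N1 (adjusted p = 1.58e-10) and 0.81 ± 0.07 in N2 (adjusted p = 4.96e-09). At chr27:188087-200637, one of the least acetylated broad regions of replete cells, they were 1.83 and 1.79 in C0, 4.08 and 3.71 in N1, and 3.20 and 3.36 in N2. These were the 2 broad regions that at least doubled in N1, where 1.66% of all regions did. Of the 8 broad regions on chr27, 4 rose and 0 fell in N1, where 14.3% of all regions rose and 37.2% fell. The median difference of the 8 was 0.19. On each of the other 29 chromosomes this median was below 0. In N2, 2 of the 8 rose and 2 fell, where 23.6% of all regions rose and 54.2% fell. The N1 count includes the pair above, and the narrower regions of chr27 were not compared.

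Other gains started from C0 levels on either side of the broad median of 3.74. The region at chr14:703425-739410, 35986 bp wide, had H3K27ac ratios of 4.78 and 4.44 in C0, 8.95 and 8.25 in N1, and 6.92 and 7.37 in N2, which made it the most acetylated broad region of N1. At chr7:882003-897960 the ratios were 3.37 and 3.48 in C0, 6.51 and 7.05 in N1, and 5.89 and 6.01 in N2. At chr3:1564892-1591727 they were 3.54 and 3.28 in C0, 5.45 and 5.28 in N1, and 5.58 and 6.41 in N2. In these regions every deprived library was above both C0 libraries. A transient gain was found at chr4:275611-291030, where ratios of 3.30 and 3.07 in C0 rose to 4.79 and 5.10 in N1 and stood at 2.81 and 2.59 in N2, a fall of 0.88 ± 0.08 between the days (adjusted p = 2.39e-07). The reverse course was seen at chr8:842746-871349, with 6.22 and 6.63 in C0, 3.40 and 4.01 in N1, and 5.36 and 5.39 in N2, a rise of 0.54 ± 0.08 between the days (adjusted p = 1.06e-05).

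**Figure D4:**
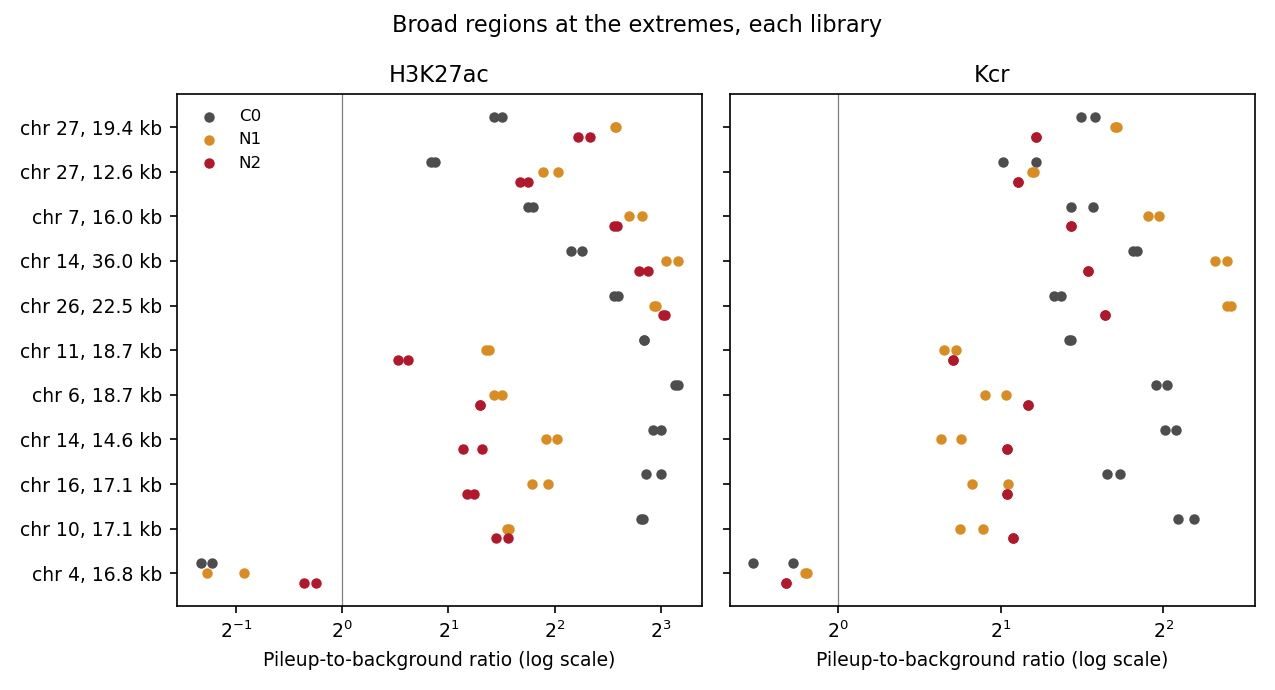
Ratio of pileup to background (log scale) of H3K27ac and Kcr in each library, for the 4 largest called H3K27ac gains in N1, the largest Kcr gain, 4 largest H3K27ac losses in N2, the remaining region of the 2 largest Kcr losses in N1 and the region on chr4 without acyl marks. Rows give chromosome and width; grey, orange and red points are C0, N1 and N2 libraries, and all deprived H3K27ac values lie above C0 in the upper 4 rows and below C0 in the loss rows.

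Kcr fell in most broad regions after a single day and changed little between the days. In N1, 7 broad regions rose and 420 fell against C0 (limma), where 16.4% of all regions rose and 64.1% fell. In N2, 1 rose and 428 fell, where 7.52% of all regions rose and 56.1% fell. Median log2 differences were -0.49 in N1 and -0.58 in N2, against -0.43 and -0.38 over all regions. From N1 to N2, 14 broad regions rose and 64 fell, where 11.4% of all regions rose and 7.47% fell, and the median was -0.08 against 0.01. These 78 regions compare with 18.9% of all regions. Without the first N1 library of Kcr the last count of falls was 40.

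Scaling changed this picture as well. With library medians set equal, 140 broad regions rose and 44 fell on day 1 (42.7% and 14.0% of all regions), 22 rose and 97 fell by day 2 (27.5% and 13.9%), and 2 rose and 151 fell between the days (5.92% and 17.2%). Equal SDs as well gave 251 rises and 13 falls on day 1 (32.9% and 12.8% of all regions), 21 rises and 16 falls by day 2 (5.23% and 3.73%), and 5 rises and 213 falls between the days (8.81% and 25.0%). The pileup without background gave 253 rises and 3 falls from N1 to N2, where 53.8% of all regions rose and 0.237% fell. Pileup over the lowest lambda of each library gave 7 and 86, against 6.31% and 7.94%.

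**Figure D5:**
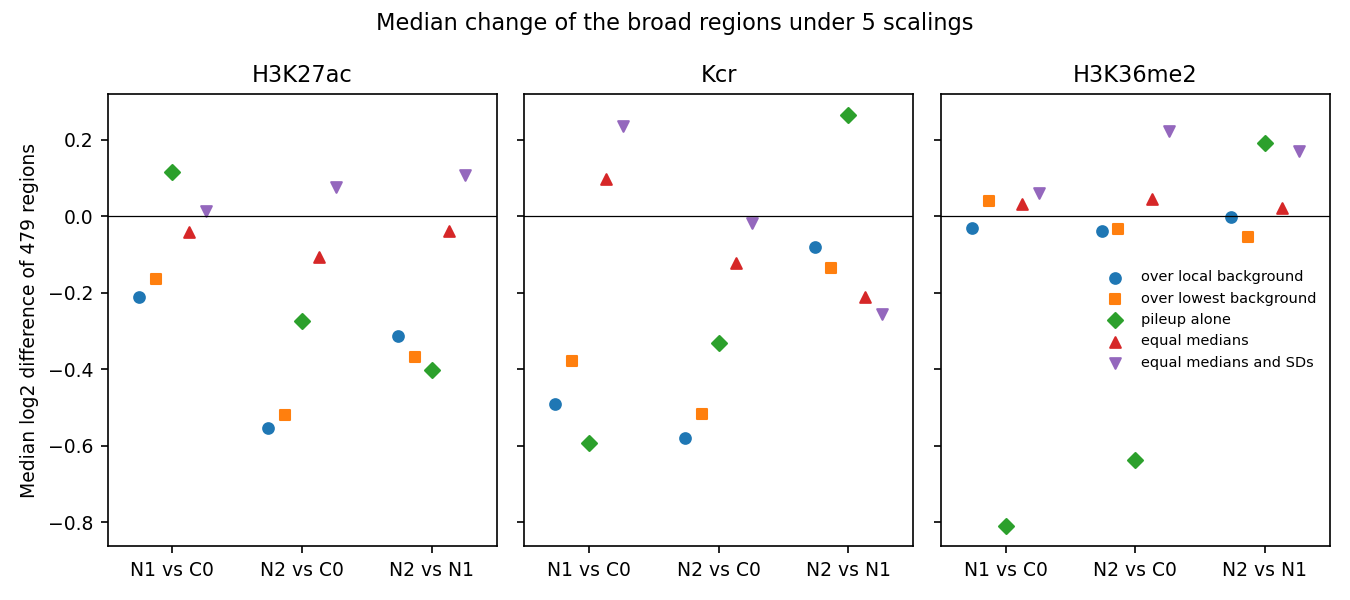
Median log2 difference of the 479 broad regions for each mark and comparison under 5 scalings of the same values. For H3K27ac in N2 against C0 the median was -0.55 over the local background, -0.52 over the lowest background of the library, -0.27 for the pileup alone, -0.11 once the library medians were equal and 0.08 once the SDs were equal too.

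The region with the largest Kcr gain, chr26:239273-261725, had Kcr ratios of 2.51 and 2.58 in C0, 5.33 and 5.24 in N1, and 3.12 in N2. The rise in N1 was 1.05 ± 0.08 (adjusted p = 2.95e-11), the only doubling of Kcr among broad regions in N1, where 3.16% of all regions at least doubled. Its N2 difference of 0.29 ± 0.10 (adjusted p = 0.0157) was the sole Kcr rise in N2, and without the first C0 library it was 0.27 and no longer passed the threshold. H3K27ac there was 6.05 and 5.90 in C0, 7.65 and 7.74 in N1, and 8.10 and 8.21 in N2, the highest of all broad regions in N2. Chr26 was at the same time the chromosome with the smallest share of broad regions.

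The next largest Kcr gains of N1 did not last. At chr14:703425-739410 Kcr was 3.58 and 3.51 in C0, 5.24 and 5.00 in N1, and 2.90 in N2, a fall of 0.82 ± 0.10 from N1 (adjusted p = 8.47e-06). At chr2:1547238-1561046 it was 3.04 and 2.77 in C0, 4.26 and 3.93 in N1, and 2.16 in N2, the largest Kcr fall between the days at 0.92 ± 0.11 (adjusted p = 3.66e-06). At chr7:882003-897960 it was 2.70 and 2.96 in C0, 3.75 and 3.92 in N1, and 2.70 in N2. In each of these regions the N2 value was at or below the C0 range, while both N1 libraries were above it.

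The deepest Kcr losses of N1 were in regions with high values in C0, which are part of the difference they were chosen by. At chr14:825002-839620 the ratios were 4.03 and 4.22 in C0, 1.55 and 1.69 in N1, and 2.06 in N2. Its fall of 1.35 ± 0.09 in N1 (adjusted p = 2.87e-12) was the largest. At chr10:860662-877777 they were 4.57 and 4.26 in C0, 1.86 and 1.69 in N1, and 2.10 in N2. By N2 the largest loss was at chr7:272276-285991, with 2.86 and 2.83 in C0, 1.87 and 1.65 in N1, and 1.27 in N2 (-1.16 ± 0.13, adjusted p = 4.23e-08). A recovery of Kcr was found at chr29:439122-453302, where 2.15 and 2.29 in C0 became 1.21 and 1.03 in N1 and 1.91 in N2. This rise of 0.78 ± 0.15 between the days (adjusted p = 0.000856) was the largest of the 14.

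The 2 acyl marks were then compared directly, by testing whether the change of Kcr differed from that of H3K27ac in the same region. The scales of the marks differ between antibodies, and the SD of log2 enrichment in C0 was 0.42 for H3K27ac and 0.23 for Kcr. The part of this scale in the differences was not tested. In N1 the Kcr change was the lower in 223 broad regions and the higher in 27 (limma, interaction term), against 36.6% and 8.39% of all regions and 45% in either direction. In N2 it was lower in 43 and higher in 39, against 7.18% and 4.5% of all regions and 11.7% in either direction. The median difference between the changes was -0.28 in N1 and -0.02 in N2, against -0.22 and -0.08 over all regions. Without the second C0 library of H3K27ac, 52 rather than 82 broad regions differed in N2. With library medians equal the N1 counts were 30 lower and 143 higher (6.86% and 29.4% of all regions), and with SDs equalised as well 4 and 198 (4.00% and 19.9%), while the pileup alone gave 436 and 6 (71.2% and 1.84%). In N2 the setting with equal medians and SDs moved the balance to 58 lower and 3 higher, against 4.89% and 1.26% of all regions.

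Individual regions departed in either direction. At chr8:394504-418692 H3K27ac rose while Kcr fell. H3K27ac ratios there were 2.70 and 2.79 in C0, 3.87 and 3.61 in N1, and 4.08 and 4.22 in N2. Kcr ratios were 3.12 and 2.64 in C0, 1.84 and 1.74 in N1, and 1.86 in N2. The difference between the changes was -1.13 ± 0.13 in N1 (adjusted p = 1.71e-07) and -1.22 ± 0.14 in N2 (adjusted p = 6.25e-07), the largest on this side in both comparisons. At chr16:234599-250169 H3K27ac went from 1.98 and 2.07 in C0 to 3.32 and 3.61 in N1, and Kcr from 2.35 and 2.89 to 1.93 and 2.17 (-1.12 ± 0.15, adjusted p = 1.84e-06). The chr27:188087-200637 region, in contrast, gained H3K27ac with a Kcr difference of 0.08 ± 0.10 in N1 (adjusted p = 0.445).

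On the other side stood regions that lost H3K27ac and kept more of their Kcr. At chr20:366312-380456 H3K27ac was 5.43 and 5.31 in C0 and 3.26 and 3.33 in N1, while Kcr was 2.89 and 3.11 in C0 and 3.27 and 3.19 in N1. The Kcr change exceeded that of H3K27ac by 0.82 ± 0.11 (adjusted p = 2.78e-06), the most in N1. At chr2:515345-529616 H3K27ac was 7.87 and 7.93 in C0 and 3.75 and 3.51 in N1, and Kcr 2.89 and 2.99 in C0 and 2.31 and 2.37 in N1. In N2 the widest gap was at chr11:782447-801163, where Kcr was 2.70 and 2.68 in C0, 1.57 and 1.66 in N1, and 1.63 in N2 beside the deep H3K27ac loss given above (1.55 ± 0.14, adjusted p = 3.24e-08). At chr6:921281-940020 Kcr went from 3.88 and 4.06 in C0 to 2.24 in N2, and the gap was 1.03 ± 0.12 (adjusted p = 9.24e-07).

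H3K36me2 changed in fewer broad regions and in both directions. In N1, 24 rose and 33 fell against C0 (limma), where 7.23% of all regions rose and 15.1% fell. In N2, 46 rose and 72 fell, where 16.3% of all regions rose and 19.4% fell. From N1 to N2, 56 rose and 73 fell, where 27.1% of all regions rose, 17.2% fell and 44.3% did either. The median log2 differences from C0 were -0.03 in N1 and -0.04 in N2, against -0.07 and -0.01 over all regions. C0 had 1 library for this mark, and without either N1 library the N1 falls were 13 and 10 rather than 33. Without the second N1 library 11 regions rather than 24 rose in N1, and without either one the rises from N1 to N2 were 33 and the falls 36 and 34.

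Scaling again shifted the balance of H3K36me2. Setting the library medians equal gave 35 rises and 16 falls on day 1 (9.91% and 9.55% of all regions), 71 rises and 33 falls by day 2 (22.7% and 12.3%), and 66 rises and 54 falls between the days (29.3% and 14.7%). Setting the SDs equal too gave 3 rises and 0 falls on day 1 (1.03% and 1.08% of all regions), 81 rises and 9 falls by day 2 (12.5% and 5.76%), and 104 rises and 32 falls between the days (21.1% and 10.8%). Over the lowest lambda, 27 rose and 4 fell in N1 (4.08% and 9.52%), and 26 rose and 94 fell between the days (20.9% and 18.4%). The pileup alone gave falls in all 479 broad regions in N1 and in 465 in N2, where 98.6% and 86.2% of all regions fell, with 0 rises in either, and the gains named next were then below 0. C0 had been deposited on a larger scale, with a lowest lambda of 28.7 against 15.7 in N1 and 18.7 in N2. Its pileup step was 1 fragment per 2.63 M, below the fragment number in the study's supplement. This scale enters every comparison of the pileup alone with C0. The falls and negative values under that setting therefore cannot be read as changes of H3K36me2. From N1 to N2 the pileup gave 224 rises and 3 falls, against 53.0% and 2.52% of all regions.

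Gains of H3K36me2 were led by chr13:315715-333159 in N1. This region had H3K36me2 ratios of 1.03 in C0, 1.49 and 1.58 in N1, and 1.40 and 1.46 in N2. The rise was 0.58 ± 0.11 in N1 (adjusted p = 0.000114). H3K27ac in the same region fell, from 6.53 and 7.03 in C0 to 4.20 and 4.42 in N2. By N2 the largest gain was at chr25:557184-569809, with 0.988 in C0, 1.16 and 1.38 in N1, and 1.68 and 1.56 in N2 (0.71 ± 0.12, adjusted p = 3.13e-06). H3K27ac there was 5.26 and 5.22 in C0 and 2.40 and 2.78 in N2, so that the marks moved in opposite directions in both of these regions. H3K27ac fell in N2 in 404 of the 479 broad regions, so such a fall was not particular to them. At chr6:210695-246203, H3K36me2 was 1.06 in C0, 0.999 and 1.15 in N1, and 1.42 and 1.59 in N2, a gain that came between the days (0.49 ± 0.10, adjusted p = 3.95e-05).

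Losses of H3K36me2 were named in regions that lay above the C0 median of the mark. The single C0 library enters both that level and the loss. At chr15:429913-455505 ratios of 1.72 in C0, 1.13 in both N1 libraries and 1.16 and 1.09 in N2 gave a fall of 0.60 ± 0.12 in N1 (adjusted p = 0.000108). All 3 marks fell there. H3K27ac was 7.26 and 7.49 in C0 and 3.59 and 3.50 in N1, and Kcr 4.22 and 4.54 in C0 and 2.16 and 2.09 in N1. At chr2:890318-904451 H3K36me2 was 1.48 in C0, 1.31 and 1.42 in N1, and 0.820 and 0.957 in N2, the largest loss of N2 at 0.74 ± 0.12 (adjusted p = 3.87e-06). At chr9:427304-442704 it was 1.77 in C0, 1.25 and 1.20 in N1, and 1.06 and 1.09 in N2. A loss followed by recovery was seen at chr11:836722-856756, with 1.81 in C0, 1.20 and 1.19 in N1, and 1.68 and 1.44 in N2. Once library medians and SDs were equal, the N1 differences at chr15, chr9 and chr11 were -0.85, -0.74 and -0.84 in those rescaled units and no longer passed the threshold. Over the lowest lambda of the library, those at chr15 and chr9 were -0.20 and -0.24 and did not pass it either.

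H3K36me2 peaked on day 1 at chr7:470142-483572, where it was 1.58 in C0, 2.07 and 2.05 in N1, and 1.14 and 1.29 in N2. This was the one region with a ratio of at least 2, and its fall between the days, 0.77 ± 0.09 (adjusted p = 1.02e-09), was the largest. The same course was found at chr7:272276-285991, with 1.24 in C0, 1.58 and 1.53 in N1, and 0.918 and 0.941 in N2. In the latter all 3 marks fell from N1 to N2. At chr20:381259-394464 the order was reversed, with 1.30 in C0, 1.09 and 1.07 in N1, and 1.63 and 1.50 in N2 (0.53 ± 0.09 between the days, adjusted p = 4.78e-06).

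The few broad regions near the ends included some of these gains. The first and the last region of chr12 were both broad. At chr12:292-15718 H3K36me2 was 1.02 in C0, 1.43 and 1.47 in N1, and 1.29 and 1.26 in N2. At chr12:1117784-1159452 it was 1.10 in C0, 1.52 and 1.62 in N1, and 1.29 and 1.41 in N2. Both rose in N1, by 0.50 ± 0.11 (adjusted p = 0.000888) and 0.51 ± 0.11 (adjusted p = 0.000676). Among the 11 broad regions within 25 kb of an outermost region, 3 rose and 1 fell in N1, and 4 rose and 1 fell in N2. Of the narrower regions there, 14.7% rose and 13.4% fell in N1, and 26.4% rose and 11.7% fell in N2. Their median difference was 0.23 in N1 and 0.22 in N2. In narrower regions of the same zone it was 0.00 and 0.13. In broad regions beyond 400 kb it was -0.05 and -0.08. This grouping was made after the values were seen and was not tested.

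The widest region of all, chr8:526093-598023 with 71931 bp, lost all 3 marks by day 2. H3K27ac was 4.13 and 4.14 in C0, 4.54 and 4.41 in N1, and 2.75 in both N2 libraries, and Kcr was 3.88 and 3.22 in C0, 3.06 and 2.51 in N1, and 1.75 in N2. H3K36me2 was 1.38 in C0, 1.26 and 1.32 in N1, and 1.03 and 1.13 in N2. Its Kcr fall of 1.01 ± 0.12 in N2 (adjusted p = 1.36e-07) was among the 9 broad regions whose Kcr at least halved, where 2.42% of all regions did. In the next widest, chr12:666685-730874 with 64190 bp, the course was nearer to that of the median region, with H3K27ac at 4.72 and 4.58 in C0, 3.99 and 3.85 in N1, and 2.94 and 3.05 in N2. The shares of falls were close across widths for the acyl marks. H3K27ac fell in N2 in 82.0% of the regions of 12 to 15 kb and in 85.7% of those of 30 kb or more, and Kcr in 87.2% and 92.2%. For H3K36me2 they lay further apart. In N2 it fell in 18.8% of the regions of 12 to 15 kb and in 10.4% of those of 30 kb or more, and it rose in 8.27% and 15.6%, with medians of -0.09 and 0.02. These shares were not tested.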

How the data were processed

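The submitters' processing notes list Trim Galore, BWA, Picard, deepTools and MACS2, and the study's methods describe peak calling against input. Their versions and the genome build of the ChIP-seq alignment were not given in the sources used. The authors deposited, for each library and merged region, a coverage signal (pileup) and its local background (lambda), identical across the 9 tables. The fold changes and p-values of the authors' own comparisons were not used, nor were 36 columns of 12 libraries that the labels do not cover.

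Here, enrichment was log2(pileup + 0.5) minus log2(lambda + 0.5), which understates changes of low values. For each mark limma 3.58.1 (R 4.3.3, variance trend) was fitted over all 3803 regions and the libraries of the 3 conditions (3 residual degrees of freedom for H3K27ac and 2 for each of the other marks), and Benjamini-Hochberg adjusted p under 0.05 made a call. Identical libraries entered once, with a spread borrowed from the mark's other groups. The variance of each region was also drawn toward a trend over all regions. That trend had the weight of 16.9, 27.4 and 67.6 prior degrees of freedom for H3K27ac, Kcr and H3K36me2. Standard errors thus rest mostly on a spread pooled over regions. A joint fit of Kcr and H3K27ac tested the difference of their changes. The fits were tested on simulated data with known changes. The members, lists and tests were chosen with earlier results of these data known. Named regions were the 5 widest, the 3 nearest the threshold on either side, the highest and lowest in C0, and the largest called gains, losses and differences between the acyl marks, together with regions called for all 3 marks, and the text gives a selection of them. The inverse of the pileup step was equal, within rounding, to the fragment number listed in the study's supplement for a library, except for H3K36me2 in C0 and replicate 2 of Kcr in N2. Alternatives were a pseudocount of 5, the pileup alone, equal library medians, equal medians and SDs, only regions above the median level, no variance trend, a replicate block and leaving out each library, and, chosen after seeing the data, the pileup over the lowest lambda of the library. Sequences of the regions were not analysed here.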

Additional observations from a re-analysis of the deposited data

Results flagged for a closer look

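The change from C0 differed between the days in part of the broad regions, by the limma test of N2 against N1 in the same fit. This held for 348 of the 479 broad regions for H3K27ac, for 78 for Kcr and for 129 for H3K36me2. Over all regions the shares were 61.3%, 18.9% and 44.3%. For H3K27ac most of the 348 were falls (331), as were 64 of those for Kcr and 73 of those for H3K36me2. In the same order, 41.7%, 7.47% and 17.2% of all regions fell. The C0 libraries are shared by the changes of both days.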

How the results depend on the processing

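Counts of broad regions given here are rises, then falls, unless stated. For equal medians, and for equal medians and SDs, the shares of all regions are given above. With equal library medians they were, for H3K27ac, 98 and 156 in N1, 94 and 188 in N2, 66 and 113 from N1 to N2, while Kcr had 140 and 44, 22 and 97, 2 and 151, and H3K36me2 had 16 falls in N1, 71 and 33 in N2. With equal medians and SDs, in the same order, H3K27ac had 91 and 102, 168 and 63, 182 and 33, Kcr had 251 and 13, 21 and 16, 5 and 213, and H3K36me2 had 3 and 0, 81 and 9, 104 and 32. The pileup alone gave, for H3K27ac, 196 and 86 in N1 and 53 rises in N2, while Kcr had 8 rises in N2 and 253 and 3 from N1 to N2, H3K36me2 had 0 and 479, 0 and 465, 224 and 3, and 442 regions differed in their change of Kcr and H3K27ac in N1. Over the lowest lambda, Kcr rises were 14 in N1, 4 in N2 and 7 from N1 to N2 (15.6%, 5.92% and 6.31% of all regions). H3K36me2 had 4 falls in N1, 42 in N2 and 26 rises from N1 to N2 (9.52%, 19.6% and 20.9%). Without the variance trend, 11 rises of H3K27ac from N1 to N2, 0 rises of Kcr in N2, 1 and 8 of Kcr from N1 to N2, 30 rises of H3K36me2 in N2 and 32 different changes in N2 were left. A pseudocount of 5 gave 52 falls of H3K36me2 in N1. Runs without the variance trend, with a pseudocount of 5, with a replicate block or without a library have no share over all regions here. For H3K36me2 against C0, the pileup alone includes the larger scale of C0 given above. The cause of these shifts was not tested.

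Same-numbered replicates of a mark did not deviate together between conditions (r = -0.0228 to 0.0344). Whether the numbers pair the marks within a condition was not checked, and the test of Kcr against H3K27ac took the libraries as unpaired. With a replicate block the falls of H3K36me2 in N1 were 19, and every other count stayed within 1.5 times. Leaving out 1 library at a time gave 0 to 1 rises of Kcr in N2, 40 to 68 falls of Kcr from N1 to N2, 11 to 25 rises and 10 to 37 falls of H3K36me2 in N1, 33 to 43 rises and 34 to 56 falls of it from N1 to N2, and 52 to 87 different changes in N2. Of the 57 gains and losses of single regions chosen by the rule for named regions, the 716 values under alternatives kept direction and call in 690, lost the call in 17 and reversed in 9. All reversals were H3K36me2 under the pileup alone, with -0.49, -0.45, -0.68 and -0.41 for the N1 gains at chr13:315715-333159, chr12:1117784-1159452, chr9:683240-714611 and chr12:292-15718, -0.24, -0.29, -0.33 and -0.14 for the N2 gains at chr25:557184-569809, chr20:127966-147637, chr6:210695-246203 and chr13:315715-333159, and 0.057 for the loss from N1 to N2 at chr7:272276-285991. The reversals in N1 and N2 were against C0, whose H3K36me2 pileup was on a larger scale, so they cannot be read as a change of direction. Paired libraries and a shared or closely similar background within each condition limit every p-value given.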
